A study of Homo sapiens with 6 samples.

Results

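The regions described here carried a peak of the first MEIS2 library of SK-N-BE(2) cells and no peak of either HAND2 library or of the second MEIS2 library. The 5 deposited peak lists were pooled over chromosomes 1 to 22 and X, and intervals that overlapped by at least 1 bp were merged into 61457 regions. Of these, 9073 held a peak of MEIS2 replicate 1, and 1102 of the 9073 (12.1%) held no HAND2 peak and no peak of MEIS2 replicate 2. A TCF4 peak was present in 566 of the 1102 regions and absent from 536, and both subsets are followed throughout. The regions were thus chosen by peak calls, the presence of a MEIS2 replicate 1 peak and the absence of HAND2 and MEIS2 replicate 2 peaks, and these features are not results.

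SK-N-BE(2) is an established human neuroblastoma line, and the labels give no treatment, engineered allele or time point for any library. In CUT&Tag an antibody brings a transposase to the protein of interest, and the enzyme inserts adapters into the DNA close by. There were 2 libraries for HAND2 (antibody ab200040, Abcam), 2 for MEIS2 (sc-515470, Santa Cruz), 1 for TCF4 (ab217668, Abcam) and 1 for a non-specific IgG (ab172730, Abcam), which entered only as the background of the peak calls. The labels do not say whether replicates came from separate cultures.

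MEIS2 is a homeodomain factor of the TALE class that binds DNA with PBX partners, often beside HOX proteins. HAND2 belongs to the basic helix-loop-helix (bHLH) factors of sympathetic neurons and pairs with E proteins such as TCF4 and TCF3 on E-boxes, and it is part of the core regulatory circuit of adrenergic neuroblastoma cells. The CCAAT box is a common promoter element that the trimeric factor NF-Y binds, often together with GC boxes bound by SP-family factors.

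To show the DNA beneath the strongest regions, the promoters below are those in which the MEIS2 replicate 1 summit lay within 250 bases before to 50 bases after an annotated start site, for the regions of highest fold in each subset. Each line gives the 250 bases before the start site, 5′ to 3′ in the direction of transcription, from RefSeq on GRCh38.p14. Capitals mark CCAAT boxes (ATTGG on either strand). The positions of the promoters from regions with TCF4 are chr19:1652616-1652865 on the minus strand for TCF3, chr17:81666487-81666736 on the plus strand for CCDC137, chr21:46184460-46184709 on the minus strand for SPATC1L, chr7:1138258-1138507 on the minus strand for CHLSN and chr17:18260412-18260661 on the plus strand for MIEF2.

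Promoters of regions with TCF4:
TCF3: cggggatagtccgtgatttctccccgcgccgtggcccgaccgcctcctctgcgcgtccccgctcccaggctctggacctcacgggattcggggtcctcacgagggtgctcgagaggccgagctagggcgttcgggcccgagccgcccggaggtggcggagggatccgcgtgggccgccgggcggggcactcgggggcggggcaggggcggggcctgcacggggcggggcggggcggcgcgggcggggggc
CCDC137: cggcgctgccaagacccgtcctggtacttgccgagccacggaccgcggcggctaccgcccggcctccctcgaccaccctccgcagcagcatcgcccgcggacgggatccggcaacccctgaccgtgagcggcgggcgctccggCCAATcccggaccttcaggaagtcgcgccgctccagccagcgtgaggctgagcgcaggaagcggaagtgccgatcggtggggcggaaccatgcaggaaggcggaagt
SPATC1L: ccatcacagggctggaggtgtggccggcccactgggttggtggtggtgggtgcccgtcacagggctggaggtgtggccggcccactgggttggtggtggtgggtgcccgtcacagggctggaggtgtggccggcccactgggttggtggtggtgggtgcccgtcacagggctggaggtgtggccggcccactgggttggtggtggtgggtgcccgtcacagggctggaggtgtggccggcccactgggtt
CHLSN: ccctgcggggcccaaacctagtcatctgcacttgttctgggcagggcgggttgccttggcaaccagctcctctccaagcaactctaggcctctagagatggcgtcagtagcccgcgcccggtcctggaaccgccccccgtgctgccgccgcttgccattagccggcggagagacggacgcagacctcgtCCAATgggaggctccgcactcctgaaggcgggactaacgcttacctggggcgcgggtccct
MIEF2: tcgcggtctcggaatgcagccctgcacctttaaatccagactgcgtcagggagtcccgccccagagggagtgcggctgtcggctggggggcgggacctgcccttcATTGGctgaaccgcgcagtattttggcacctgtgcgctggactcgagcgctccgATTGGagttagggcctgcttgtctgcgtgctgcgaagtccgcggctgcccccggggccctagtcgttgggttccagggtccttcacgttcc

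The promoters from regions without TCF4 lie at chr17:28812472-28812721 on the minus strand for FAM222B, chr19:7629546-7629795 on the minus strand for XAB2, chr6:116616229-116616478 on the plus strand for RSPH4A and chr12:14774155-14774404 on the plus strand for H2AJ. All 4 hold at least 1 CCAAT box.

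Promoters of regions without TCF4:
FAM222B: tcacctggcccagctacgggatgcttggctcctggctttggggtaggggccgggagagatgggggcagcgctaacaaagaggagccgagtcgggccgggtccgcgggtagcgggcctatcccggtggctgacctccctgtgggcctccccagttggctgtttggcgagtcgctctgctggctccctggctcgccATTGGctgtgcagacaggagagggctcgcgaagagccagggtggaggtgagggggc
XAB2: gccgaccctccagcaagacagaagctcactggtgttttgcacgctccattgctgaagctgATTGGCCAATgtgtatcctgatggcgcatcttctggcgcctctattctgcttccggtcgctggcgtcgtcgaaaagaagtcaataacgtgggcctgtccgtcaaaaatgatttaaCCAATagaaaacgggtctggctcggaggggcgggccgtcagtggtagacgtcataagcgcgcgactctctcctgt
RSPH4A: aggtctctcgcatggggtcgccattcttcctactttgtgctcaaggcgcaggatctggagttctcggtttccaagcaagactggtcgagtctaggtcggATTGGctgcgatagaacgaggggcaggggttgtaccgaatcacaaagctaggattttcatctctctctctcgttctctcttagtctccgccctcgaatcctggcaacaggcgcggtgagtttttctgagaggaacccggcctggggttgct
H2AJ: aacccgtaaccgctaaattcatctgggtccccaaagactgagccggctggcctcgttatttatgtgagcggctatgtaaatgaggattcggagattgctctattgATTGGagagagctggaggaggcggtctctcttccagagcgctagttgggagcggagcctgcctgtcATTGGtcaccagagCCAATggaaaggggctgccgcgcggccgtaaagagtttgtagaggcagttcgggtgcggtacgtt

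Of these 9 promoters, 7 held a CCAAT box in the 250 bases shown. XAB2 and H2AJ held 3 each, MIEF2 held 2, and CCDC137, CHLSN, FAM222B and RSPH4A held 1. In XAB2 the boxes began at -190, -185 and -75 from the start site, and in H2AJ at -145, -79 and -65. The TCF3 promoter held neither a CCAAT box nor an E-box (CANNTG), but it had 8 matches to the GC box GGGCGG in 79.6% GC. The SPATC1L promoter was a tandem repeat: its bases matched those 53 bp downstream at 99.5% of positions, against 31.8 to 41.3% at the best such spacing in the other 8. The files do not say how reads that match several repeat units were treated.

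Some facts of the libraries bear on every value. The MEIS2 lists held 9595 and 13871 peaks, against 30410 and 33484 for HAND2 and 30704 for TCF4. Depth relative to IgG was estimated as the unit whose whole multiples fitted most local backgrounds of a list. For MEIS2 it was 0.248 and 0.368, against 0.784 to 0.932 in the other libraries. Of the backgrounds used, 63.2% and 31.0% were whole multiples in the MEIS2 lists, against 60.8 to 69.3% in the others. Only 2344 of the 9073 MEIS2 replicate 1 regions (25.8%) held a MEIS2 replicate 2 peak, and all 13876 peak identifiers of replicate 2 carry the word Flag, which occurs in no other list. The regions described here thus rest on 1 MEIS2 library, no value has a replicate, and no test between conditions was possible. Regions of 1 library are not replicates, so shares are given with exact 95% binomial intervals and folds with exact 95% Poisson intervals of the summit pile-up, which cover counting error only.

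The fold used here is the authors' own value for a peak. It is the fragment pile-up at the summit divided by the local background scaled from IgG, with the same constant added to both. The constant lowers the fold most where the background is low, as in most regions without TCF4. The strongest region lay at TCF3, which encodes the E proteins E12 and E47. At this peak, chr19:1650853-1653483, 430 fragments piled up over a background of 46.0 IgG fragments, giving a fold of 34.8 (31.6 to 38.2). TCF4 also had a peak there, with a fold of 8.53 (7.64 to 9.49) and a summit 13 bp away, and the nearest HAND2 peak was 43530 bp off. At backgrounds within 20% of this one, the HAND2 libraries had peaks called down to folds of 1.64 and 1.56, and MEIS2 replicate 2 down to 2.06. These are the lowest folds among 689, 844 and 16 called peaks of such background, and not fixed limits. Weaker enrichment may be missing from the lists. The TCF3 region ranked 37 among all 9073 MEIS2 replicate 1 regions by fold.

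The region between the divergent genes OXLD1 and CCDC137, chr17:81665813-81667373, had a fold of 29.8 (25.7 to 34.3), and TCF4 had 4.55 (3.63 to 5.63) there. The repeat at SPATC1L followed with 27.5 (25.2 to 30.1), from 497 fragments over 69.0 IgG fragments, and a TCF4 fold of 3.03. Next came AGPAT1 with 25.2, an acyltransferase of phosphatidic acid synthesis, where the summit lay 2163 bp from an end of the gene but 139 bp from an annotated start site, and the nearest HAND2 peak was 701 bp away. ERI3 had 24.7. HNRNPC, a protein of nascent pre-mRNA particles, had 21.4 (18.5 to 24.6) and CHLSN 19.1. MIEF2, a receptor for the mitochondrial fission machinery, had 19.0, YPEL2 17.8 and the transcriptional repressor gene ZBTB7A 17.7. In 8 of these 10 regions the summit lay within 1 kb of a gene end, and in all 10 it lay within 364 bp of an annotated start site, the value at ZBTB7A. Among regions at gene ends, PHF20, a subunit of a histone acetyltransferase complex, and DAZAP2 came next, with folds of 17.4 and 16.9. PHF20 had the highest TCF4 fold of these, 16.6 (15.3 to 18.0).

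The strongest regions without TCF4 lay over 1 kb from any gene end, and all rested on 42 fragments or fewer. The highest fold, 19.9 (14.4 to 26.7), lay 2467 bp outside APMAP at chr20:24994719-24995515 and rested on 42 fragments. A pair of regions about 8 kb apart on chromosome 10, chr10:80909166-80909709 and chr10:80917539-80917947, had 18.4 (12.4 to 26.5) and 19.1 (12.9 to 27.3) from 27 and 28 fragments. Their nearest gene, SH2D4B, was 262881 and 271168 bp away, and the nearest HAND2 peak was over 200 kb off. The next were SOX6 with 15.8, a SOX-family transcription factor gene 245730 bp from its region, ARHGAP36 with 15.2, NEU3 with 14.1, KANK4 with 13.8, AATF and TMEM100 with 13.2 each, and HEY1 with 13.1, a Notch target whose gene lay 32997 bp away. The summits at KANK4 and AATF lay inside those genes, and that at NEU3 was 4511 bp outside.

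**Figure D1:**
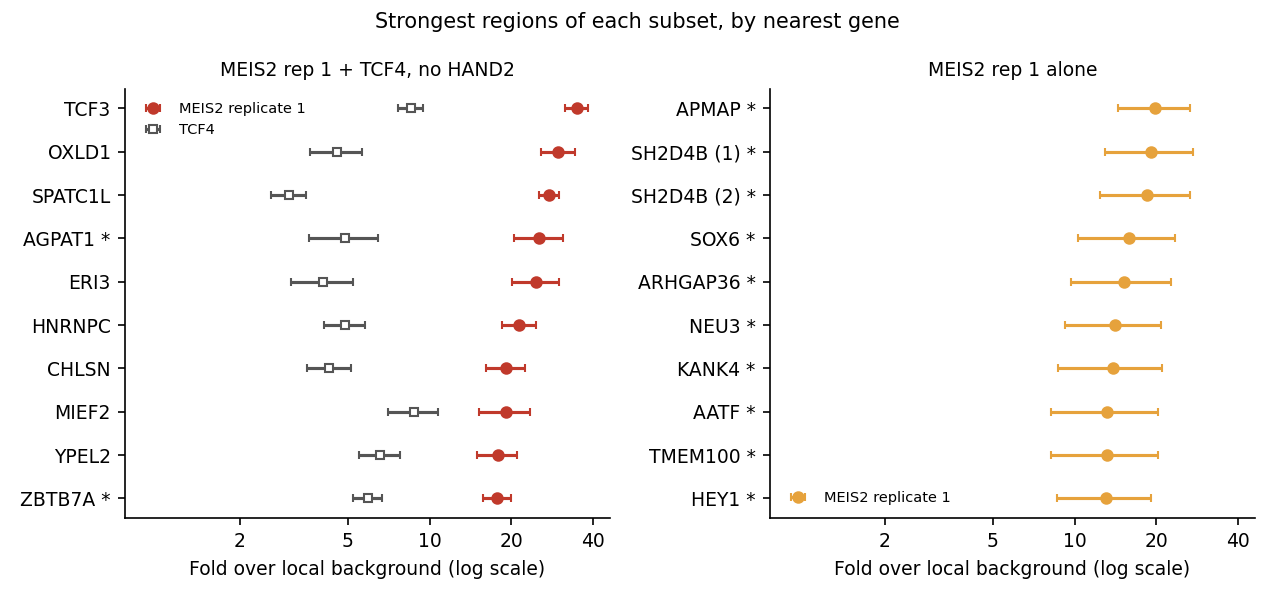
Fold over the local background (log axis) of the 10 strongest regions of each subset, labelled by the nearest protein-coding gene. Circles are MEIS2 replicate 1 and squares TCF4, bars are 95% Poisson counting intervals, and * marks a summit over 1 kb from an end of the named gene. With TCF4, MEIS2 folds run from 17.7 to 34.8, above the TCF4 fold of the same region in each case; folds of the 2 lists are not on 1 scale of depth.

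Where a region without TCF4 did lie at a gene end, the strongest was ATP5F1B, the beta subunit of mitochondrial ATP synthase, with 12.8 (10.1 to 16.0) from 75 fragments. ADRB3, a beta-adrenergic receptor, had 12.1 (8.85 to 16.1). One region reached XAB2, PET100 and STXBP2 with 10.2 (7.54 to 13.5), RSPH4A had 10.1 and H2AJ 9.53. LOC107985043 had 9.22, STPG1 7.52, ZNF492 7.03, the histone pair H2AC17 and H2BC17 6.95, and ZBTB8B 6.94. At the background of ATP5F1B, TCF4 peaks were called down to a fold of 1.92 and HAND2 peaks down to 1.93 and 1.85.

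Most of the regions had modest folds. The median MEIS2 replicate 1 fold was 4.70 with TCF4 (quartiles 3.70 to 6.56) and 5.36 without (4.58 to 6.64). It was 5.74 in the 5482 regions that also held HAND2 and TCF4, and 6.92 in the 2374 with HAND2 and no TCF4. These folds belong to the library that chose the regions and are given without a test. A fold of at least 10 was reached by 57 regions with TCF4 (10.1%) and 23 without (4.29%). Among the 100 strongest MEIS2 replicate 1 regions 3 were members, among the 1000 strongest 50, against 12.1% of all. A −log10 q below 3, close to the lowest value in the list of 2.00, was found in 110 members (9.98%) and in 340 regions with HAND2 (4.33%).

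The subsets differed in background. With TCF4, the median summit pile-up was 25 fragments over 19.3 IgG fragments. Without TCF4, it was 11 over 4.08. At least 30 IgG fragments lay under 148 of the 566 summits with TCF4 and 6 of the 536 without. The background was highest near CYRIA, at 124 IgG fragments, with a fold of 4.45 (3.75 to 5.24), and at ENSA, at 116, with 8.65 (7.62 to 9.77). ELL followed with 93.0, ATF7 with 86.0 and the region nearest CCDC200 with 84.0, and their folds were 3.08, 8.66 and 6.56. The part of the background in these differences was not tested.

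**Figure D2:**
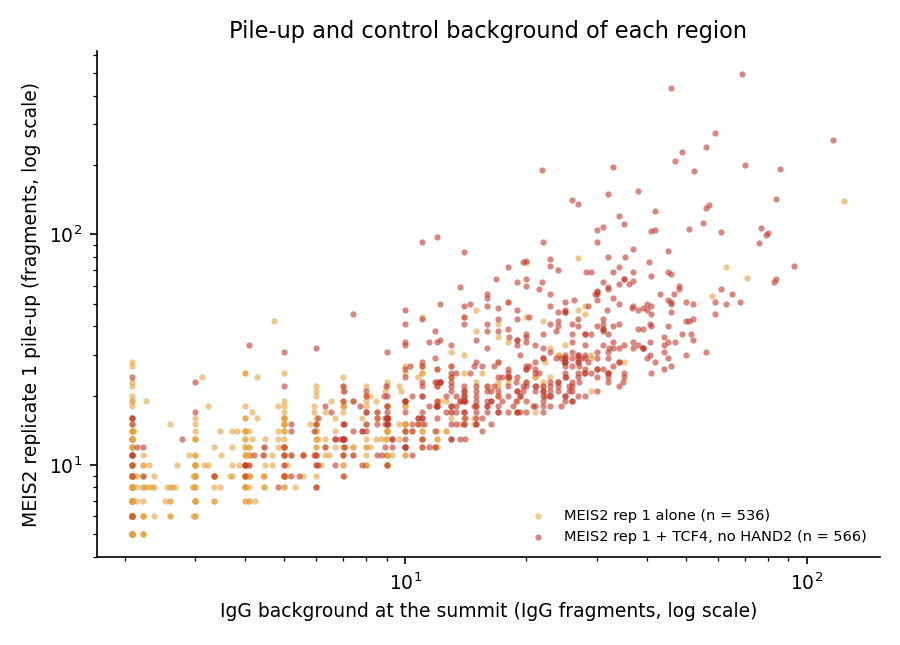
Summit pile-up of MEIS2 replicate 1 against the IgG background at the same summit for each of the 1102 regions (both axes logarithmic), red with TCF4 and yellow without. Regions with TCF4 spread to higher backgrounds (median 19.3 against 4.08 IgG fragments) and higher pile-ups (median 25 against 11 fragments); the column of points at the left is the lowest background the list can hold.

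Distances to HAND2 peaks varied widely. The rule excluded any overlap with HAND2, and no other class of region was measured for comparison. The median distance to the nearest HAND2 peak of either library was 20922.5 bp, 401 regions (36.4%) had one within 10 kb, 81 (7.35%) within 1 kb, and 184 (16.7%) had none within 100 kb. The choice by overlap drew the line between regions such as those at PTPRS, FSTL4 and RABGEF1, with gaps of only 3, 5 and 7 bp and folds of 4.90, 4.47 and 2.73, and 13 regions counted as holding HAND2 through an overlap of 50 bp or less, with a median fold of 4.04. A further 50 regions were counted as holding HAND2 only because peaks of other lists joined them.

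TCF4 was called in 51.4% of the regions (48.4 to 54.4), against 69.8% (68.8 to 70.8) of the 7856 MEIS2 replicate 1 regions with HAND2. Merged regions with HAND2 were wider, at a median of 1891 bp with TCF4 and 1114.5 bp without, against 1173.5 and 483.5 bp here. The part of width in the TCF4 shares and folds was not tested. Its peaks were weaker here than beside HAND2: the median TCF4 fold was 5.40 (quartiles 4.03 to 7.93) in the 566 regions, 9.32 (5.89 to 15.8) in MEIS2 regions with HAND2 and TCF4, and 3.88 (3.08 to 5.19) in 13262 regions where TCF4 alone had a peak. TCF4 peaks divided the subsets, but their folds chose no region, and the median background under them was 20 IgG fragments here and 16.6 beside HAND2. The summits of both factors lay close together, at a median distance of 100.5 bp, and within 500 bp in 521 regions (92.0%). With HAND2 the median was 110 bp. Across the 566 regions the folds of MEIS2 and TCF4 had a Spearman correlation of 0.11, and across the regions with HAND2 of 0.13. Both folds are divided by a background from the same IgG library.

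The highest TCF4 fold, 30.9 (27.5 to 34.6), lay inside PGAP6 at chr16:377701-378283, where MEIS2 had 5.69. A region at the ribosomal RNA genes of chromosome 21 followed with 29.6 (27.1 to 32.3) and a MEIS2 fold of 10.9. The next were a region on chromosome 14 nearest LOC124903407 with 23.6, one inside CBFA2T3 with 22.2, and one inside CARM1, an arginine methyltransferase gene, with 21.8. Their MEIS2 folds were 6.15, 6.53 and 4.45. None of these 5 was at a protein-coding gene end, and none was among the strongest MEIS2 regions.

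The subsets differed in position relative to genes. Distances were measured to either end of 19821 protein-coding genes, because the gene table gives no strand. With TCF4, 308 of 566 summits lay within 1 kb of a gene end (54.4%, 50.2 to 58.6). Without TCF4, 52 of 536 did (9.70%, 7.33 to 12.5). In MEIS2 replicate 1 regions with HAND2, the shares were 23.5% (22.4 to 24.7) with TCF4 and 3.37% (2.68 to 4.18) without. In regions of TCF4 alone it was 37.5% (36.7 to 38.3). The share was thus higher in the members than in regions with HAND2, both with and without TCF4, with intervals that do not overlap. Unlike the members, regions with HAND2 could also hold a MEIS2 replicate 2 peak. Of those with peaks of both HAND2 replicates, 1059 with TCF4 and 967 without held one. The part of MEIS2 replicate 2 in this and the other comparisons with HAND2 regions was not tested. The background of members with TCF4 was also higher, at a median of 19.3 IgG fragments against 15.2 with HAND2 and TCF4. Among regions under 30 IgG fragments the shares were 45.7% (40.8 to 50.6) with TCF4, 9.25% (6.92 to 12.04) without, 16.8% (15.8 to 18.0) with HAND2 and TCF4, 3.35% (2.66 to 4.17) with HAND2 and no TCF4, and 32.6% (31.8 to 33.5) for TCF4 alone.

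The remaining regions with TCF4 were inside genes (29.2%) or outside (16.4%), and those without TCF4 were inside genes (48.1%) or outside (42.2%). Counting only annotated start sites, where the promoter table has the chromosome, gave 52.9% and 8.75%. Of 340 pairs of a gene and a region at its end whose start sites are known, 310 (91.2%) lay within 1 kb of a start site. Gene ends shared by 2 or more genes were reached by 57 of the 308 regions with TCF4 (18.5%) and 8 of the 52 without (15.4%).

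Of the 57 regions with TCF4 and a fold of at least 10, 30 lay at a gene end, as did 4 of the 23 without TCF4. The medians were slightly lower there: the median MEIS2 fold was 4.57 at gene ends and 4.93 away from them with TCF4, and 4.64 and 5.47 without. The background differed the other way, at 25 and 13 IgG fragments with TCF4, and 11.6 and 4 without. TCF4 folds had medians of 5.17 at gene ends and 5.82 away from them.

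**Figure D3:**
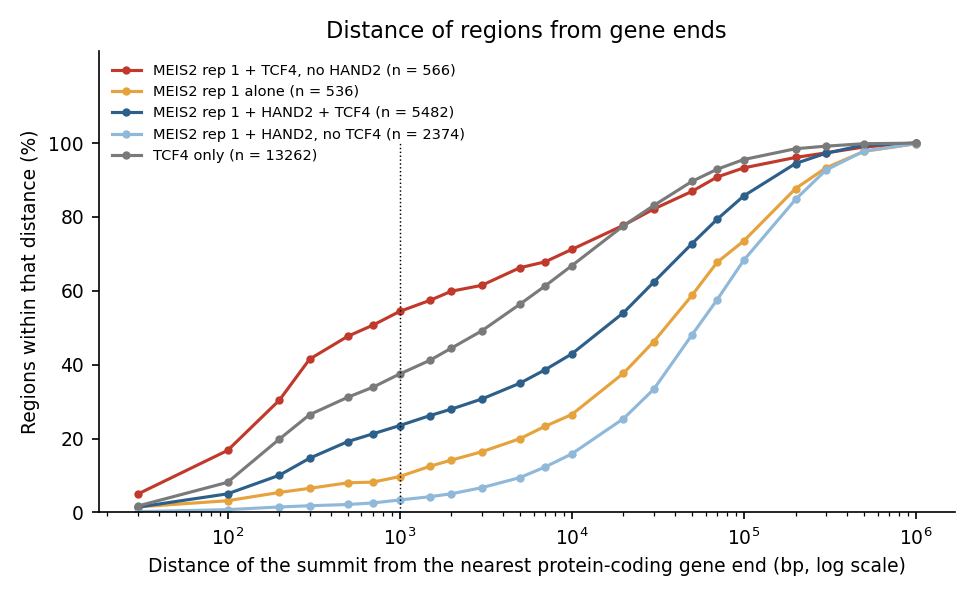
Share of regions whose summit lies within a given distance of the nearest protein-coding gene end (log axis), for 5 classes of region, with a dotted line at 1 kb. At 1 kb, regions with MEIS2 replicate 1 and TCF4 but no HAND2 are highest at 54.4%, followed by TCF4 alone at 37.5%, MEIS2 with HAND2 and TCF4 at 23.5%, MEIS2 replicate 1 alone at 9.70% and MEIS2 with HAND2 and no TCF4 at 3.37%.

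CCAAT boxes were more frequent in the promoters of these regions than in promoters at large. Promoter windows of 300 bases, from 250 before to 50 after each start site, were taken from RefSeq, and a window counted where the MEIS2 replicate 1 peak overlapped it (for TCF4 alone, the TCF4 peak). Each motif was searched on both strands, and a match is only a match of letters. ATTGG, the CCAAT box, was found in 62.3% (56.7 to 67.6) of 318 windows with TCF4 and 71.7% (56.5 to 84.0) of 46 without. It was found in 47.4% (44.8 to 50.1) of 1425 windows with HAND2 and TCF4, 58.4% (46.6 to 69.6) of 77 with HAND2 and no TCF4, 30.9% (29.6 to 32.2) of 4829 with TCF4 alone, and 34.7% of all 22012 windows. The interval with TCF4 lies above that with HAND2 and TCF4, whereas the interval without TCF4 overlaps that with HAND2 and no TCF4. At least 2 boxes stood in 34.9%, 30.4%, 24.4%, 31.2%, 10.8% and 11.4% of windows, in the same order. Several windows can belong to 1 gene, and with 1 value per gene the share over both subsets was 68.4% in place of 63.5%. The other classes were not counted per gene, so this value has no counterpart to compare.

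Windows that held the summit itself had more CCAAT boxes, 73.0% (65.5 to 79.7) of 163. The same count gave 53.0% (48.1 to 57.9) with HAND2 and TCF4, and 28.8% (26.5 to 31.2) with TCF4 alone. Boxes were most frequent from 100 to 50 bases before the start site: 39.0% (34.0 to 44.2) of windows over both subsets had one starting there, 25.8% with HAND2 and TCF4, 14.1% with TCF4 alone and 14.6% of all. Of 146 regions with a summit in a window, 104 had a CCAAT box in it, at a median of 63.5 bp from the summit, and 43 of them within 50 bp. Their median MEIS2 fold was 5.49, against 4.10 for the other 42. With TCF4 the medians were 5.49 and 3.97, and without TCF4, over 15 and 8 regions, 4.93 and 4.86. These folds belong to the library that chose the regions.

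**Figure D4:**
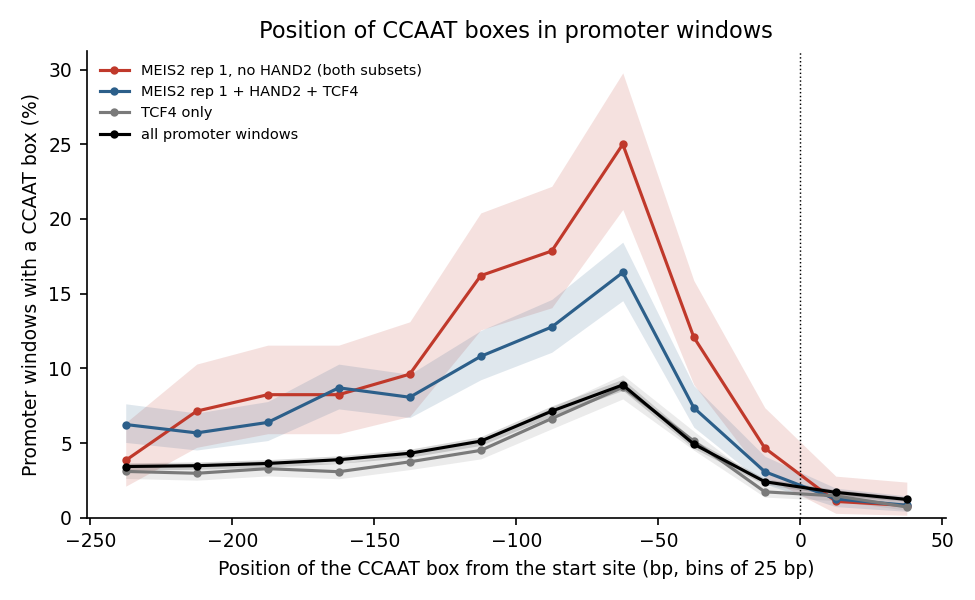
Share of promoter windows with a CCAAT box in each 25-base bin from the start site (dotted line), with exact 95% binomial intervals shaded, for both subsets together, MEIS2 regions with HAND2 and TCF4, TCF4 alone and all 22012 windows. All 4 curves peak from 75 to 50 bases before the start, at 25%, 16.4%, 8.7% and 8.9%.

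The classes also differed in GC content. Median GC was 67.3% with TCF4 and 58.8% without. It was 65.0% with HAND2 and TCF4, 51.0% with HAND2 and no TCF4, 69.0% with TCF4 alone and 62.3% over all windows. Among windows of 60.9 to 72.3% GC, the CCAAT box was found in 64.9% (57.5 to 71.7) of 185 from both subsets, 48.8% (44.9 to 52.6) with HAND2 and TCF4, 32.9% (31.0 to 34.8) with TCF4 alone and 33.4% of all. Only 9 windows without TCF4 and 7 with HAND2 and no TCF4 fell in that range, and 6 and 5 of them had a CCAAT box, too few to rank these classes. GC boxes (GGGCGG) were in 86.2% (81.9 to 89.8) of windows with TCF4 and 63.0% without. They were in 79.8% (78.6 to 80.9) with TCF4 alone, 75.1% with HAND2 and TCF4, 26.0% with HAND2 and no TCF4 and 56.3% of all.

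Sequences that MEIS proteins are known to bind gave a mixed picture. The MEIS core TGACAG was in 14.8% (11.1 to 19.2) of windows with TCF4, 10.9% (3.6 to 23.6) without, 16.9% with HAND2 and no TCF4 and 14.9% of all. The PBX-MEIS composite TGATTGAC was in 11 of 318 windows (3.5%, 1.7 to 6.1) with TCF4 and 1 of 46 without, against 1.5% with HAND2 and TCF4, 0 of 77 with HAND2 and no TCF4, 0.4% with TCF4 alone and 0.6% of all. TGATTGG, which was added after the data were seen and contains ATTGG, was in 18.6% (14.4 to 23.3) of windows with TCF4 and 23.9% (12.6 to 38.8) without, against 16.4% with HAND2 and TCF4, 29.9% (19.97 to 41.4) with HAND2 and no TCF4, 7.1% with TCF4 alone and 7.9% of all. E-boxes were fewer with TCF4: CANNTG, which includes CATCTG, was in 47.5% (41.9 to 53.1) of windows, against 63.0% (47.5 to 76.8) without TCF4, 58.5% (55.8 to 61.03) with HAND2 and TCF4, 68.8% (57.3 to 78.9) with HAND2 and no TCF4, 57.1% with TCF4 alone and 65.1% of all. CATCTG, a form that HAND factors bind, was in 6.3% (3.9 to 9.5) of windows with TCF4 and 17.4% (7.8 to 31.4) without, against 10.6% with HAND2 and TCF4, 14.3% with HAND2 and no TCF4, 7.4% with TCF4 alone and 12.2% of all. Without the regions of at least 30 IgG fragments, the E-box share over both subsets was 57.5% in place of 49.5%. Among windows of 60.9 to 72.3% GC, the E-box share was 50% (42.4 to 57.6) with TCF4. It was 57.7% (53.9 to 61.5) with HAND2 and TCF4, and 61.2% (59.2 to 63.2) with TCF4 alone. In windows that held the summit it was 49.3% (40.6 to 58.0), 53.3% (48.3 to 58.1) and 56.4% (53.8 to 59.0), in the same order. In both counts the interval with TCF4 overlaps that with HAND2 and TCF4.

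**Figure D5:**
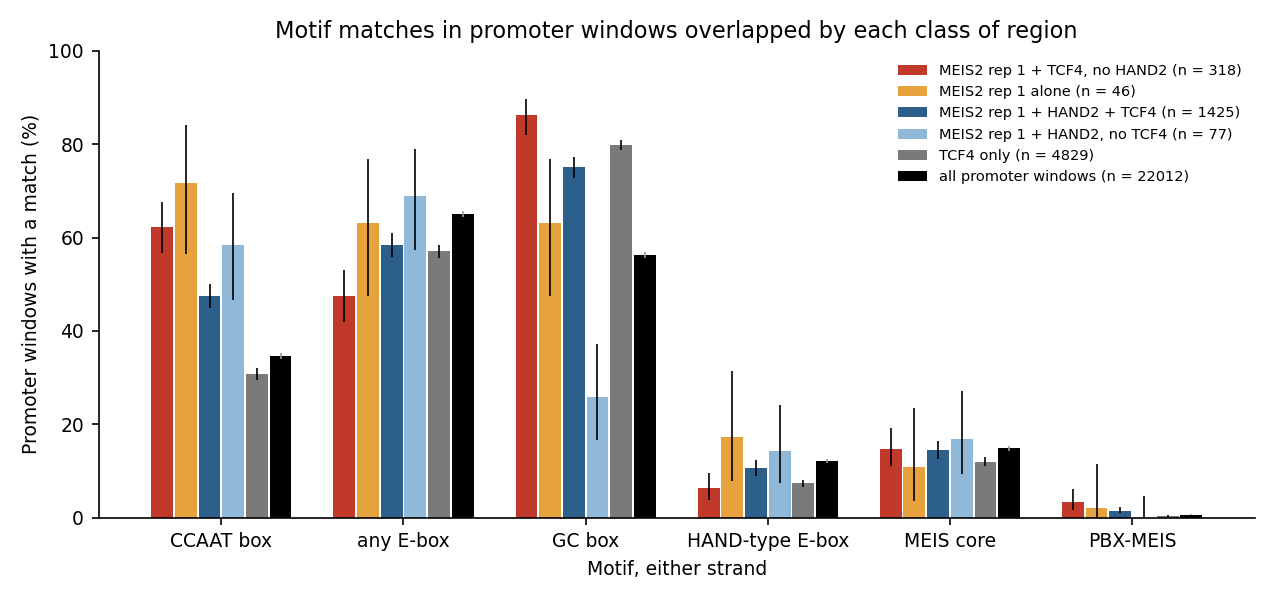
Share of promoter windows with at least 1 match to 6 motifs on either strand in 6 sets of windows, with exact 95% binomial intervals as bars on each column. The CCAAT box is at 62.3% and 71.7% in the 2 subsets without HAND2 and at 34.7% of all windows, while the E-box share with TCF4, 47.5%, is the lowest of the 6 sets.

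Over both subsets 425 of 19821 protein-coding genes had a member summit within 1 kb of an end (2.14%), 364 of them from regions with TCF4 (1.84%) and 61 from regions without (0.308%). Within 50 kb of an end it was 1989 genes (10%), 1451 of them through regions with TCF4 (7.32%) and 654 through regions without (3.3%). The count at ends depends on HAND2 replicate 2: without it, 711 genes had such a region, and without summits of at least 30 IgG fragments 274 had one. Over 13 gene lists 30 genes had a region at an end, and the shares below stand beside the 2.14% of all genes.

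Few genes of the lineage lists had a region at an end. None of 15 genes of catecholamine synthesis and storage had one at an end or within 50 kb. Of 25 mesenchymal genes, JUN had 2.89 (2.06 to 3.96) and TWIST1 5.89 (3.19 to 10.2). Among 18 TALE homeobox genes PKNOX1, itself a TALE factor that pairs with PBX, had 7.73 (6.07 to 9.71). Of 20 neuronal genes MAPT, which encodes tau, had 3.09 (1.90 to 4.80). All of these were regions with TCF4.

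Of 39 HOX genes, HOXC9 had 5.85, HOXD8 4.03 and HOXD1 3.41, and 17 of 39 had a region within 50 kb, in the HOXC and HOXD clusters, where neighbouring genes share regions. Of 22 splicing and RNA processing genes 4 had a region at an end (18.2%): HNRNPC with 21.4, HNRNPK with 7.73, the helicase gene DDX5 with 4.20 and SRSF6 with 3.02, all with TCF4. Of 81 ribosomal protein genes 6 did (7.41%), from RPLP0 with 6.77 and RPL36 with 5.66 to RPL37 with 3.57, and RPL10 and RPL37 were without TCF4. Oxidative phosphorylation had ATP5F1B in 21 genes, chaperones and proteasome HSPA8 with 2.92 in 18, and the cell cycle list CCNE2 with 3.67 in 33. None of 389 olfactory receptor genes had a region at an end.

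Histone genes had 9 of 73 at an end (12.3%) and 43 of 73 within 50 kb (58.9%). Regions with TCF4 reached H4C4 with 6.04, H4C11 with 5.12 and the neighbours H2AC20 and H2AC21 with 4.78. Regions without TCF4 reached H2AC17 and H2BC17 with 6.95, H1-5 with 5.93, H4C9 with 4.65 and H2AC16 with 3.76. Their pile-ups were 12 to 23 fragments. Histone genes are clustered and close copies of each other, so single regions count for several genes and the placing of reads among copies is uncertain.

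In 14 genes at least 3 member summits lay in the gene or its 5 kb flanks. LINC02210-CRHR1 and LSS had 4 each. At LSS, lanosterol synthase of the cholesterol pathway, all 4 held TCF4 and included the SPATC1L repeat, with folds from 4.15 to 27.5 over a gene of 40329 bp. KCNN3 and PRDM16 had 3 regions with TCF4 each. ASIC2, KCNMA1, MPPED2, PARD3B, SNX29 and TENM4 had 3 regions without TCF4 each, in genes of 202912 bp (MPPED2) to 1143682 bp (ASIC2). APBA2, GLIS1, MYO18A and SEZ6 held 3 of both kinds.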

How the data were processed

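Peak lists of 5 CUT&Tag libraries were used. bcl2fastq 2.17, Bowtie2 and MACS3 3.0.0a6 on hg38 made them, per the submitters' processing notes, which name no Bowtie2 version, options or duplicate handling. Each deposited list holds for every peak the fold (a ratio to the local background), −log10 p, −log10 q and an integer score, all from the authors' peak calls on single samples. The score was not used. The other deposited column, the summit offset, placed summits.

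The members and all gene lists were chosen with earlier results of these data known. Named regions were the 10 of highest MEIS2 replicate 1 fold per subset, the 10 highest at gene ends per subset, 5 by TCF4 fold, 5 by background, genes with at least 3 members, and list genes at ends.

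Whole summit pile-ups were recovered from fold and p for 100% of peaks, and for 2968 of 2968 simulated ones. Background divided by the unit estimated for its list is called IgG fragments, and cannot fall below 2.09 for MEIS2 replicate 1. At HAND2 summits the median pile-up was 34 and 41, at MEIS2 summits 22 and 13, and at TCF4 summits 60. Gene ends came from the RefSeq table of GRCh38.p14, leaving out 679 genes listed on scaffolds. Promoter windows cover 15712 genes. Python 3.11.15, pandas 2.3.3 and scipy 1.17.1 were used. Alternatives covered thresholds, overlap, libraries, background and windows.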

Additional observations from a re-analysis of the deposited data

How the results depend on the processing

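Settings were changed 1 at a time, and each recomputed value was marked only as kept or moved. Of 129 values recomputed for 14 results, 89 kept within the spread allowed and 40 moved. With −log10 q of at least 5 in all lists, 58.7% of regions held TCF4, 38.5% lay at gene ends (12.9% without TCF4), and medians were 12.2 IgG fragments, a MEIS2 fold of 5.96, a TCF4 fold of 5.80 and 25853 bp to HAND2. With that limit on MEIS2 replicate 1 alone, 719 regions remained, 58.0% with TCF4 and 36.9% at gene ends, with 12 IgG fragments and a fold of 6.03. Taking MEIS2 replicate 1 peaks singly with 50% overlap gave a fold of 4.91, a TCF4 fold of 5.95 and 16129 bp to HAND2. Without summits of 30 or more IgG fragments, 44.2% held TCF4, 25.3% lay at gene ends (45.6% with TCF4) for 274 genes, E-boxes were in 57.5% of windows and the median was 8.0 IgG fragments. Windows of 500 bp and 2 kb put 28.4% and 37.7% at gene ends, 47.7% and 59.9% with TCF4, and 14.2% without TCF4 at 2 kb. CCAAT boxes were in 73.0% of windows holding the summit.

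Leaving out HAND2 replicate 1, HAND2 replicate 2 or MEIS2 replicate 2 in turn gave 1223 to 1578 regions, 46.7 to 59.9% with TCF4, 28.8 to 37.3% at gene ends, 436 to 711 genes, 58.0 to 63.6% of windows with a CCAAT box, 8.45 to 12 IgG fragments, a fold of 4.93 to 5.27, a TCF4 fold of 5.39 to 5.89 and 21259 to 24958 bp to HAND2. The highest count of genes came without HAND2 replicate 2. All 42 named regions stayed members under 6 of 8 settings of the lists, 41 when lists were merged across 500 bp and 31 without high backgrounds. The settings for TCF4 fold, chromosomes, 1 value per gene, start sites and GC range were chosen after seeing the data, as was leaving out summits of 30 or more IgG fragments for the background, MEIS2 fold and HAND2 distance. No paired analysis was possible because no result comes from a test between groups and TCF4 has 1 library.

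The MEIS2 libraries are the shallowest, at an estimated 0.248 and 0.368 of the IgG depth, and signal too weak to be called is not in any list. The absence of a peak is therefore no measure of absent binding.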

Other observations

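The regions were spread unevenly over chromosomes. Chromosome 17 held 121 of the 1102 (11%, 9.19 to 13), against 6.67% (6.13 to 7.24) of MEIS2 replicate 1 regions with HAND2 and 5.84% of protein-coding genes. It held 13.8% (11 to 16.9) of members with TCF4 and 8.02% (5.87 to 10.7) of those without. The interval without TCF4 includes the share with HAND2. Of regions of TCF4 alone, 8.29% (7.82 to 8.77) lay there. Chromosome 19 held 7.35% (5.88 to 9.05), against 3.58% (3.18 to 4.01) with HAND2, close to its 7.11% of genes. It held 9.89% (7.56 to 12.7) of members with TCF4 and 4.66% (3.04 to 6.81) of those without, an interval that includes the share with HAND2. Of regions of TCF4 alone, it held 9.64% (9.15 to 10.2). Copy number of the line was not measured here. Chromosome 21 held 36 regions (3.27%, 2.30 to 4.49), 27 of them with TCF4, against 0.71% (0.54 to 0.92) with HAND2 and 1.71% of regions of TCF4 alone. Of these 36, 11 lay below 9 Mb, where the ribosomal RNA repeats stand, and 14 above 40 Mb.

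Genes that are not protein-coding were also reached. Summits within 1 kb of a miRNA gene numbered 12 of 566 with TCF4 (2.12%, 1.10 to 3.67) and 0 of 536 without, which allows up to 0.69%. Over both subsets the share was 1.09% (0.564 to 1.89). It was 0.382% (0.258 to 0.545) in the 7856 regions with HAND2, which were not split by TCF4. Among these miRNA genes were MIR615 and MIR7704, and some lie within or beside longer genes. Ribosomal RNA genes had 3 regions, all with TCF4, and tRNA genes 12, of which 6 were with TCF4. For lncRNA genes the shares were 15.4% (12.5 to 18.6) with TCF4 and 5.41% (3.65 to 7.68) without. Over both subsets it was 10.5% (8.78 to 12.5), and with HAND2, again not split by TCF4, 9.30% (8.67 to 9.97). These last 2 intervals overlap.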
